A study of Mus musculus with 6 samples.

Results

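The receptors of type I and type II interferon, the Janus kinases (JAKs) that they hold and the transcription factors STAT2 and STAT3 were followed in sciatic nerves as 9 genes. *Ifnar1*, *Ifnar2*, *Ifngr1*, *Ifngr2*, *Jak1*, *Jak2*, *Tyk2*, *Stat2* and *Stat3* were chosen by name, and each matched 1 of the 59485 rows of the deposited gene table. Nerves were taken on postnatal day 4 (P4) from 3 control-labelled and 3 mutant-labelled mice, and each animal gave 1 library of poly-A RNA. The mutants were HtPA-Cre; Adar1 fl/fl; R26R, where a promoter of human tissue plasminogen activator drives Cre in neural crest (NC) cells, from which Schwann cells (SCs) derive. The controls are labelled wild-type, which in the methods of the study stands for animals with R26R, without Cre and with Adar1 fl/fl or fl/+, so that all animals carried floxed *Adar1* and the YFP reporter R26R.

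Each value is a sum over all cells of the nerve, NC-derived or not, so that fewer cells of a type and less RNA per cell cannot be told apart. Reads on genes ranged from 50938349 to 78250094 per library, and each of the 9 members rested on 883 to 31401 reads in a library. The values are read counts that the authors divided by a size factor per library, called normalized reads here, and a change is the mutant-labelled minus the control-labelled mean of log2(value + 1), fitted with limma. The targeted gene, listed as *Adar*, went against the deletion, with normalized reads of 1602, 2066 and 1133 in control-labelled and 11768, 9311 and 9773 in mutant-labelled replicates 1, 2 and 3. The table holds 1 value per gene, which does not separate the floxed segment from the rest of *Adar*, and every direction below follows the labels. Of the controls, replicate 2 stood apart with the highest values of interferon-stimulated genes, and of the mutants, replicate 3 had the highest skeletal muscle markers, as given beside the results that they touch. SC markers were present in all libraries, with a summed level of 5 genes between 42039 and 44914 in controls and between 20011 and 26912 in mutants. Of the 5, *S100b* fell at -3.07, *Erbb3* at -1.55 and *Sox10* at -0.71, and *Cdh19* stood at 0.13 (adjusted p = 0.492). *Foxd3*, at -0.38 with overlapping groups, had an adjusted p of 0.0498, which was 0.148 and 0.164 without control replicates 2 and 3 and 0.112 and 0.149 without mutant replicates 2 and 3.

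Type I interferon binds a receptor of IFNAR1 and IFNAR2, whose cytoplasmic tails hold the kinases TYK2 and JAK1, respectively. Type II interferon binds IFNGR1, the chain with JAK1, and IFNGR2, the chain with JAK2. The kinases phosphorylate STAT proteins, and STAT2 with IRF9 and a further STAT forms ISGF3, which binds the interferon-stimulated response element (ISRE), whereas STAT dimers bind gamma-activated sites (GAS). STAT3 is best known as the factor downstream of the interleukin-6 family of cytokines, and in nerve it is active in SCs after injury.

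To ask which steps of this chain differed in RNA level between genotypes, each member was compared in the 6 libraries. The threshold of the study's methods asks for at least 2-fold and p no higher than 0.05, without saying whether p is adjusted. Taken here with p before adjustment, it was met by 2 of 9 members, *Stat2* and *Stat3* (24.2% of the 25802 genes tested passed). With a Benjamini-Hochberg adjusted p at or under 0.05 and no limit on size, 6 members rose, *Ifnar2*, *Ifngr2*, *Jak1*, *Jak2*, *Stat2* and *Stat3*, beside 19% of tested genes, and 1 fell, *Tyk2*, beside 16%. In 8 of 9 members the values of the groups did not overlap, which held for 49.2% of tested genes. The median log2 fold change was 0.40 over the members and 0.03 over all tested genes. Coefficients of variation within a group lay between 1.84% for *Ifnar2* in controls and 37.9% for *Stat2* in controls. An exact two-sided permutation test of 3 against 3 animals cannot go below p = 0.1, the value that the 8 members without overlap had, and it gave p = 0.6 for *Ifngr1*.

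**Figure D1:**
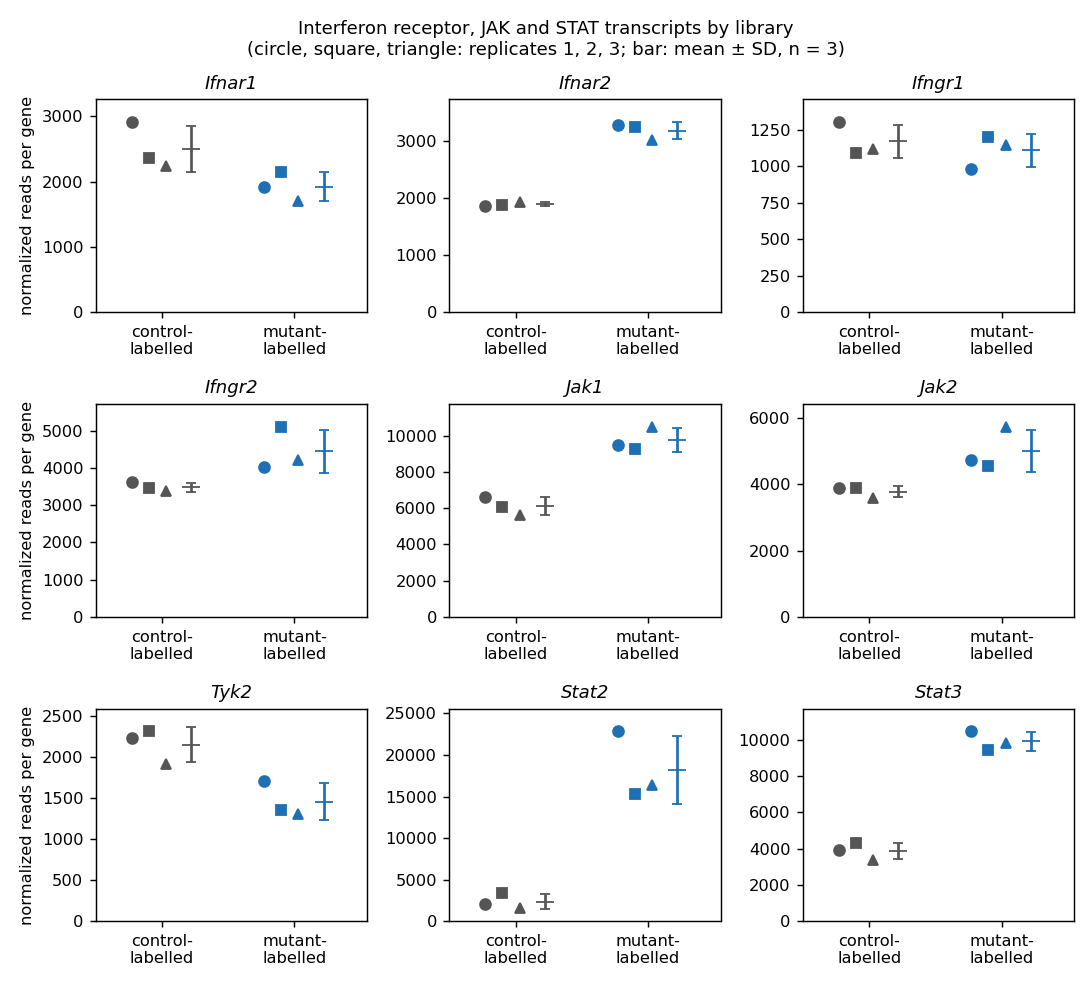
Normalized reads per gene (linear axis from 0) for the 9 members in each of the 6 libraries, with circles, squares and triangles for replicates 1, 2 and 3 and the mean ± SD of each group beside them. *Stat2* and *Stat3* show the widest gaps between groups, *Ifnar1* and *Tyk2* lie lower in mutant-labelled libraries, and the *Ifngr1* groups overlap.

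The chains of the type I receptor had changes of opposite sign, of which that of *Ifnar2* passed adjustment. *Ifnar2* (GSMG0015296, chromosome 16, 91372783 to 91405589, plus strand, mm10) encodes the chain with the high affinity for ligand. It had 1867, 1874 and 1930 normalized reads in control replicates 1, 2 and 3, against 3286, 3242 and 3015 in the mutants. The mutant values all lay above the control values, and the spread within each group was small. The mean rose from 1890 ± 34.7 to 3181 ± 145 (SD, n = 3), with a log2 fold change of 0.75 (SE 0.09, adjusted p = 0.000505 by limma), or 1.68-fold on the linear scale. GENCODE (M21) lists 5 protein-coding transcripts of *Ifnar2*, of 5 different coding lengths, the longest of 513 codons. Soluble and membrane-bound forms are known in mouse, and a single value per gene does not tell them apart.

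*Ifnar1* (GSMG0015300, chromosome 16, 91485215 to 91510520, plus strand) encodes the other chain, which holds TYK2. The controls had 2907, 2358 and 2232 normalized reads and the mutants 1924, 2141 and 1698. All mutant values lay under the lowest control value, although the gap between mutant replicate 2 and control replicate 3 was narrow. The means were 2499 ± 359 and 1921 ± 221, with a log2 fold change of -0.38 (SE 0.14, 95% interval -0.69 to -0.06). The unadjusted p of 0.025 became 0.0655 after adjustment by limma, and 0.0446 with DESeq2, so that the call depended on the tool. Other settings gave adjusted p-values of up to 0.295.

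Sequence upstream of the type I receptor genes is shown because the changes of this pair differed in sign and both promoters held a GAS match. Promoters of RefSeq (GRCm38.p6, from 250 bases before to 50 after the gene start) were found for 9 of 9 members and searched for the GAS letters TTCNNNGAA, which read the same on both strands, and for the ISRE core GAAANNGAAA, or TTTCNNTTTC on the other strand. Of 32851 promoters of this length, 8.3% held the GAS letters and 3.44% the ISRE core. Capitals mark the match, and the sequences are on the strand of the gene, chr16:91372533-91372832 for *Ifnar2* and chr16:91484965-91485264 for *Ifnar1*, both on the plus strand.
Ifnar2: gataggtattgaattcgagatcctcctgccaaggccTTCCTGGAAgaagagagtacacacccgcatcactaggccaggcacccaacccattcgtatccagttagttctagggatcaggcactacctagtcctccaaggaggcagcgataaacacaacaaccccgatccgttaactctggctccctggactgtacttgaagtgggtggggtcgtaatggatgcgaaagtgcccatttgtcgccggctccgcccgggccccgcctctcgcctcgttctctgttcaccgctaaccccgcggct
Ifnar1: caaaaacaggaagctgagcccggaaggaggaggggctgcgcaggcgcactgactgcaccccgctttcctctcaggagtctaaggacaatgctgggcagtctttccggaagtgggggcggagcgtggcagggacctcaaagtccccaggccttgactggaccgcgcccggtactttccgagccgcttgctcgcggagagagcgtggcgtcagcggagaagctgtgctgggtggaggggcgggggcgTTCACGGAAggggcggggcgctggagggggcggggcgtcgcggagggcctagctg
The match spanned positions 37 to 45 of the window in *Ifnar2*, and positions 246 to 254 in *Ifnar1*, across the gene start. A match of letters is a description and not evidence of binding. Of the 9 member promoters, 2 held the GAS letters, 1 held the ISRE core and 6 held neither.

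Of the type II receptor, the signalling chain *Ifngr2* (GSMG0015301, chromosome 16, 91547070 to 91571097, plus strand) had 3616, 3469 and 3371 normalized reads in controls and 4027, 5109 and 4221 in mutants. Mutant replicate 2 was the highest library, and the lowest mutant stood above the highest control. The mean rose from 3485 ± 123 to 4452 ± 577, with a log2 fold change of 0.35 (SE 0.11, adjusted p = 0.0416 by limma). This call was lost when any library other than mutant replicate 1 was left out, with adjusted p-values of 0.0648, 0.113 and 0.119 without control replicates 1, 2 and 3, and of 0.0909 and 0.0644 without mutant replicates 2 and 3. The ligand-binding chain *Ifngr1* (GSMG0002755, chromosome 10, 19591949 to 19610233, plus strand) had 1301, 1093 and 1119 in controls and 979, 1202 and 1144 in mutants. The groups overlapped, with means of 1171 ± 114 and 1109 ± 116. Its log2 fold change was -0.08 (95% interval -0.39 to 0.23, adjusted p = 0.676), and its sign turned when libraries were rescaled by their totals (0.083) or by their 75th percentiles (0.013). These scalings moved all genes alike, with the median of all tested genes at 0.20 and 0.13, against 0.03 in the main fit. *Ifngr1* stayed under that median each time.

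Of the kinases, *Jak1* (GSMG0028118, chromosome 4, 101151974 to 101265282, minus strand), which serves both receptors and many cytokine receptors, had 6633, 6072 and 5644 normalized reads in controls and 9512, 9270 and 10491 in mutants. Every mutant library stood well above every control. The mean rose from 6116 ± 496 to 9758 ± 646, with a log2 fold change of 0.67 (SE 0.10, adjusted p = 0.00107 by limma), or 1.60-fold. Within its span lie unnamed genes on the other strand at no more than 70.4 normalized reads in a library, and its end overlaps 395 bases of *Raver2*, which had means of 426 in controls and 94.6 in mutants. Whether the counting used strand is not stated, and these levels are small beside those of *Jak1*.

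*Jak2* (GSMG0019576, chromosome 19, 29251803 to 29313080, plus strand), the kinase of IFNGR2, had 3887, 3880 and 3577 in controls and 4729, 4544 and 5735 in mutants. Mutant replicate 3 was the highest, and the groups did not overlap. The mean rose from 3781 ± 177 to 5003 ± 641, with a log2 fold change of 0.40 (SE 0.11, adjusted p = 0.0245 by limma). Without mutant replicate 3 the log2 fold change was 0.29 with an adjusted p of 0.06, and the call was also lost without control replicate 2 (0.0637) or 3 (0.0856). Skeletal muscle markers moved in the same libraries, with a summed level of 5 genes between 3659 and 20399 in controls and between 24019 and 185107 in mutants, highest in mutant replicate 3. All mutants stood above all controls in this sum, and its part in the *Jak1* and *Jak2* values was not tested.

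*Tyk2* (GSMG0040433, chromosome 9, 21104068 to 21131275, minus strand), the kinase of IFNAR1, ran the other way from *Jak1* and *Jak2*. It had 2235, 2316 and 1913 normalized reads in controls and 1717, 1356 and 1309 in mutants, and the highest mutant lay under the lowest control. The mean fell from 2155 ± 213 to 1461 ± 224, with a log2 fold change of -0.57 (SE 0.14, adjusted p = 0.0144 by limma). Without control replicate 2 or mutant replicate 3 the adjusted p was 0.0609 or 0.0514, with the direction kept. An unnamed gene on the other strand that overlaps *Tyk2* had means of 3.52 and 7.28 normalized reads.

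**Figure D2:**
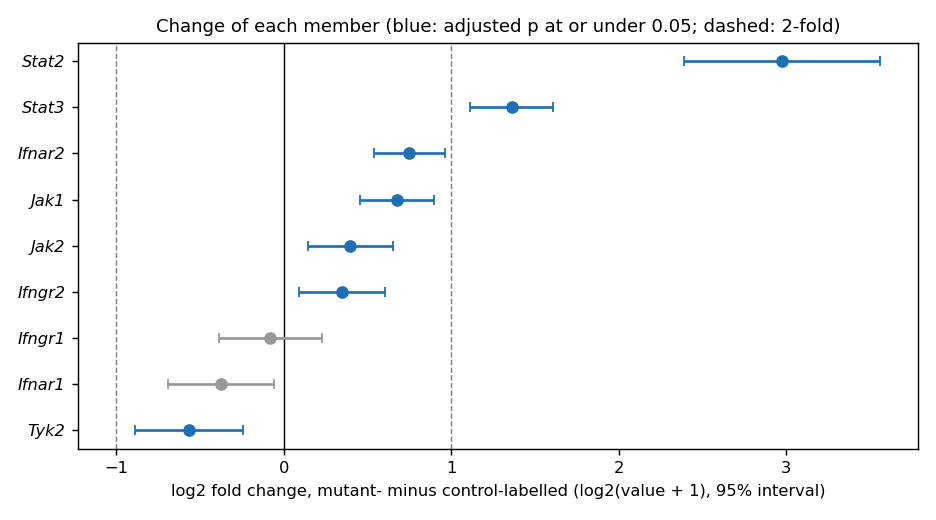
Log2 fold change of each member, mutant-labelled minus control-labelled, on the log2(value + 1) scale with its 95% interval from limma, where blue points have an adjusted p at or under 0.05 and dashed lines mark 2-fold. *Stat2* at 2.98 and *Stat3* at 1.36 lie beyond the 2-fold line, *Tyk2* and *Ifnar1* lie under 0, and the interval of *Ifngr1* spans 0.

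*Stat2* had the largest change of the 9 members. This gene (GSMG0003688, chromosome 10, 128270498 to 128292853, plus strand) had 2110, 3390 and 1646 normalized reads in controls and 22841, 15374 and 16342 in mutants. Control replicate 2 was the highest control and mutant replicate 1 the highest mutant, and the lowest mutant was far above the highest control. The mean rose from 2382 ± 903 to 18186 ± 4060, with a log2 fold change of 2.98 (SE 0.26, 95% interval 2.39 to 3.56, adjusted p = 7.67e-05 by limma), or 7.63-fold. Without control replicate 2 the log2 fold change was 3.26.

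The *Stat2* promoter is printed because it is the member promoter with the ISRE core (chr10:128270248-128270547, plus strand, RefSeq GRCm38.p6), read here on the other strand and in capitals.
Stat2: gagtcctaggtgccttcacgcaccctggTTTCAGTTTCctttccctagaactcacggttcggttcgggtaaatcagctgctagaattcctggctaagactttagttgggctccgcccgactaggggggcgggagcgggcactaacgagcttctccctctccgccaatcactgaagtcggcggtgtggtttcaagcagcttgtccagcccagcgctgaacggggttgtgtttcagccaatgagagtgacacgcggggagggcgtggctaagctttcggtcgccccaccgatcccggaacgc
The match lay 222 to 213 bases before the gene start, at positions 29 to 38 of the window. No GAS letters were in this window.

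*Stat3* (GSMG0007408, chromosome 11, 100886806 to 100939540, minus strand) had 3927, 4312 and 3385 normalized reads in controls and 10453, 9417 and 9841 in mutants. The groups were far apart and the mutant libraries lay close together. The mean rose from 3874 ± 466 to 9904 ± 521, with a log2 fold change of 1.36 (SE 0.11, adjusted p = 5.43e-05 by limma), or 2.56-fold. Its window held neither set of letters. The end of *Stat5a*, which encodes another STAT, lies 1637 bases from the end of *Stat3*, and its log2 fold change was 0.54 (adjusted p = 0.0244). That call was lost without control replicate 2 (0.0921) or 3 (0.058) and without mutant replicate 1 (0.0789) or 2 (0.0594).

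Ratios of a pair of members within a library do not depend on the size factor, and 5 were compared. The counted lengths of the genes differ, so that a ratio is read between groups and not as a ratio of molecules. *Ifnar2* to *Ifnar1* was 0.642, 0.794 and 0.865 in controls and 1.71, 1.51 and 1.78 in mutants, with means of 0.767 ± 0.114 and 1.67 ± 0.135. The mutant ratio was 2.18-fold higher on the log2 mean. This follows from the changes of *Ifnar2* (0.75) and *Ifnar1* (-0.38, adjusted p = 0.0655 by limma), which had opposite signs. *Tyk2* to *Jak1* was 0.337, 0.381 and 0.339 in controls and 0.181, 0.146 and 0.125 in mutants, which was 2.36-fold lower in mutants.

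Of the other ratios, that of the STAT genes differed most. *Ifngr2* to *Ifngr1* had means of 2.99 ± 0.199 and 4.02 ± 0.292, a difference of 0.43 in log2. *Jak2* to *Jak1* had means of 0.620 ± 0.029 and 0.511 ± 0.031, which was lower in every mutant than in every control. *Stat2* to *Stat3* had means of 0.603 ± 0.161 and 1.83 ± 0.311, a 3.07-fold difference on the log2 mean. In each of the 5 ratios, 3 of 3 mutant libraries lay beyond all controls, and the exact two-sided permutation p was 0.1 for each, also after adjustment over the 5, the smallest that this design allows. The difference in each log2 ratio follows from the changes of its 2 genes given above, so it adds no separate support. How often other pairs of genes separate was not computed, and 49.2% of single tested genes did.

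**Figure D3:**
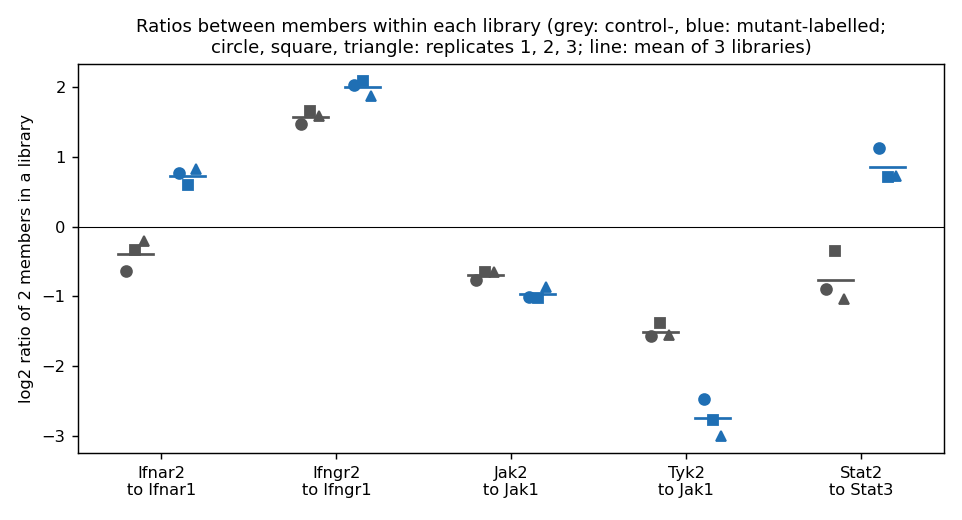
Log2 ratio of 2 members within each library, with grey symbols for control-labelled and blue for mutant-labelled libraries, circles, squares and triangles for replicates 1, 2 and 3, and lines for the mean of 3. In all 5 ratios the groups are separate, and the widest gaps are those of *Stat2* to *Stat3* and *Tyk2* to *Jak1*.

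*Ifnar2*, *Ifnar1* and *Ifngr2* lie in that order on the plus strand of chromosome 16, within 198.315 kb, with *Il10rb*, which encodes a chain shared by the receptors of interleukin-10 and interferon lambda, between the first pair. *Il10rb* starts 573 bases after the end of *Ifnar2*, yet had means of 1194 ± 53.0 and 1263 ± 136, with a log2 fold change of 0.08 (adjusted p = 0.662), while *Ifnar2* rose. Genes within 250 kb of these members numbered 30 in the table, of which 16 had a symbol and 13 of these were tested. *Tmem50b*, on the other strand 3401 bases past the end of *Ifngr2*, passed the threshold: 6036, 6474 and 6360 normalized reads in controls became 1453, 1806 and 1373 in mutants, with a log2 fold change of -2.04 (SE 0.12). *Donson*, which takes part in DNA replication, rose from 534 ± 8.58 to 878 ± 173 (log2 fold change 0.70, adjusted p = 0.0141). The other tested neighbours with a symbol had adjusted p-values from 0.154, for *Itsn1* at -0.38, to 0.868, for *Cryzl1* at 0.03, and *Gart* stood at -0.03 and *Son* at -0.09. The direction of change was therefore not shared along the interval.

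**Figure D4:**
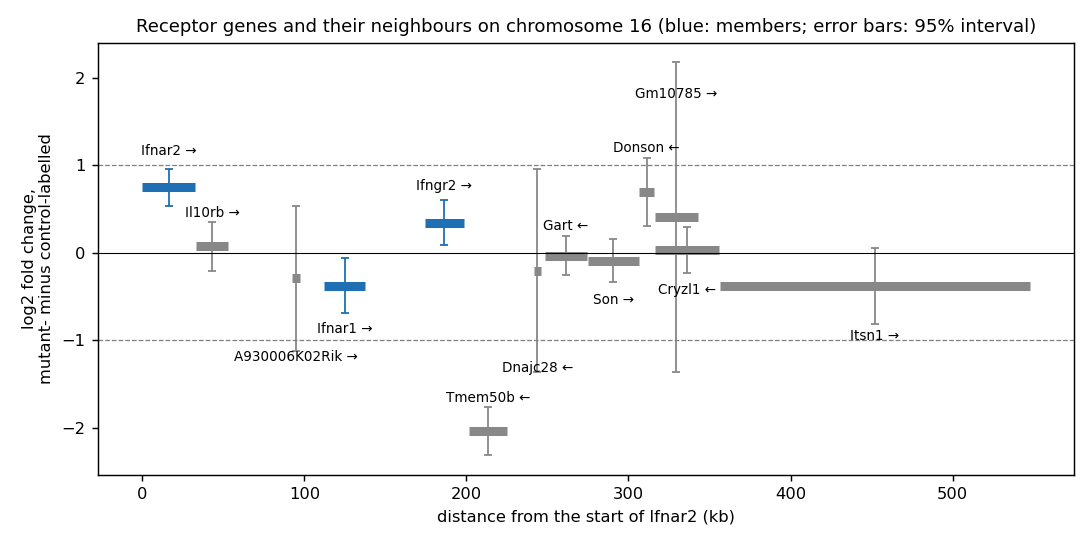
Log2 fold change (mutant-labelled minus control-labelled, with 95% intervals) against the distance in kb from the start of *Ifnar2*, for the tested genes with a symbol near the receptor genes, where horizontal bars span each gene, arrows give its strand and blue marks members. *Ifnar2* and *Ifngr2* lie above 0, *Ifnar1* lies under 0, and *Tmem50b* at -2.04 lies beyond the 2-fold line.

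For each member past the threshold, the genes with the most similar pattern were sought as the highest Pearson correlation of log2(value + 1) over the 6 libraries. For *Stat2* these were *Apol10b*, *Tapbp* and *Oas1b*, each with r = 0.998, of which *Tapbp* encodes the peptide-loading chaperone tapasin and *Oas1b* an antiviral protein of the OAS family. For *Stat3* they were *Scarf1*, *Gadd45b* and *Cebpb*, each at 0.999 or above. Such values were common: 145 genes had r over 0.99 with *Stat2* and 244 with *Stat3*.

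Genes around the members in the pathway were counted in lists fixed by name: 93 rows of the table, 76 of them tested. Of these, 42 passed the threshold as higher in mutants (13.9% of all tested genes did) and 1 as lower (10.4% did), and the median log2 fold change was 1.78. Of the 76, 8 met the minimum mean of 10 through the mutants alone, *Ifnb1*, *Ifna4*, *Ifng*, *Ifnz*, *Ido1*, *Ciita*, *Ifnlr1* and *Il22ra1*, and 5 of them were among the 42. Without these 8, 37 of 68 passed as higher and 1 as lower, with a median of 1.47. Of the 21 interferon ligands, 4 were tested, 17 had no read in any control and 11 had none in any library. *Ifnb1*, the beta interferon, had 466, 408 and 507 normalized reads in mutants, at least 139-fold higher than 3 reads per library. *Ifna4* had 132, 129 and 86.0, at least 34.9-fold higher. *Ifng*, the type II ligand, had 7.27, 28.9 and 11.9, and without mutant replicate 2 it fell short of the minimum mean. These bounds cover counting error only, since reads made by PCR without molecular identifiers are not independent molecules.

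Of 5 other receptor subunits, 2 passed the threshold as higher, beside 13.9% of all tested genes, and of these *Ifnlr1* was tested through the mutants alone. *Il10ra*, the private chain of the interleukin-10 receptor, rose from 60.2 ± 21.6 to 128 ± 29.2 (adjusted p = 0.0486), in a row that shares bases with another gene on its strand. Leaving out any library but control replicate 1 ended this call of *Il10ra*, with adjusted p-values of 0.107 and 0.134 without control replicates 2 and 3, and of 0.104, 0.144 and 0.0721 without mutant replicates 1, 2 and 3. *Ifnlr1*, the private chain of the interferon lambda receptor, stayed at or under 32.8 normalized reads and had an adjusted p of 0.0757, with log2 fold changes of 2.63 in all libraries, 3.30 without control replicate 1 and 1.83 without control replicate 2. Of 5 other JAK and STAT genes, 2 passed: *Stat4*, the STAT of interleukin-12 signalling, from 43.5 ± 8.79 to 163 ± 50.6, and the row that joins *Jak3* with *Insl3*, from 866 ± 142 to 2726 ± 833. *Stat5a* and *Stat5b* rose by less than 2-fold, at 0.54 and 0.57, and *Stat6*, at 0.16, had an adjusted p of 0.27. Among 6 STAT partners and cofactors, *Irf9*, the DNA-binding partner of STAT2, rose from 1292 ± 555 to 9365 ± 854 (log2 fold change 2.94), a size near that of *Stat2* at 2.98. *Nmi*, a STAT-binding protein, rose from 387 ± 226 to 2527 ± 108, and the other 4 did not pass the threshold.

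Of 15 inhibitors and phosphatases of the pathway, 5 passed the threshold and all of these were higher, beside 13.9% of all tested genes. By adjusted p 9 rose and 1 fell, *Pias3* at -0.43 (adjusted p = 0.0317 by limma). The call of *Pias3* was lost without control replicate 1 (0.0915), 2 (0.0734) or 3 (0.061) and without mutant replicate 3 (0.0786). *Usp18*, which binds IFNAR2 and displaces JAK1, rose from 356 ± 225 to 22586 ± 3019. *Socs3*, an inhibitor of STAT3 signalling, rose from 725 ± 158 to 5563 ± 713. *Socs1*, an inhibitor of JAKs, rose from 334 ± 95.5 to 1871 ± 400, and *Ptpn2*, a phosphatase of JAKs and STATs, from 1229 ± 89.9 to 3986 ± 191. The fifth was *Ptprc*, which encodes the leukocyte phosphatase CD45 and so also marks leukocytes, from 318 ± 67.3 to 797 ± 170. The rises of these inhibitors stood beside those of *Jak1* (0.67) and *Ifnar2* (0.75) with log2 fold changes of 6.18 for *Usp18*, 2.95 for *Socs3*, 2.50 for *Socs1* and 1.70 for *Ptpn2*. Of 7 genes of receptor turnover, such as ubiquitin ligase subunits, none passed the threshold, and by adjusted p 1 rose, *Prkd2* at 0.81, and 2 fell, *Eif2ak3* at -0.55 and *Fbxo11* at -0.37, the last of these not without control replicate 2 (adjusted p = 0.0569) or 3 (0.0662). These 3 of 7 stand near the shares of all tested genes (19% and 16%) and were named after their values were seen. *Prkd2* and *Eif2ak3* encode kinases.

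Genes that the members' proteins are known to act on were counted next. All 12 ISGF3 targets passed the threshold as higher, beside 13.9% of all tested genes, with log2 fold changes of 8.55 for *Mx1*, 7.88 for *Ifit1*, 7.66 for *Ifit3* and 7.54 for *Rsad2*, all of them antiviral effectors. The lists were chosen with earlier results of these data known. *Mx1*, *Ifit1* and *Rsad2* belong to a signature of interferon-stimulated genes that the paper reports as raised in mutant nerves, so this count is not independent support. Without control replicate 2, *Ifit1* and *Ifit3* stood at 8.86 and 8.76, and without control replicate 3 at 6.88 and 6.87. Of 12 interferon gamma targets, 7 passed as higher and 1 as lower (10.4% of all tested genes passed as lower). *Ido1*, which is among the 7 (adjusted p = 0.0624 by limma), and *Ciita*, which did not pass, met the minimum mean through the mutants alone. *Cxcl9* (6.62), a chemokine, and *Gbp5* (6.03), a guanylate-binding protein, were among those that rose. *H2-Ab1*, a class II antigen-presenting chain, fell from 237 ± 36.4 to 65.5 ± 30.6 (log2 fold change -1.93) in a row that shares bases with another gene on its strand. Other class II genes on the list were *H2-Aa*, at -0.87 with overlapping groups (adjusted p = 0.135), and *Cd74*, which rose at 0.95 (adjusted p = 0.0205). That call of *Cd74* was lost without control replicate 1 (0.0642) or 2 (0.0678) and without mutant replicate 1 (0.062). *Gbp5* stood at 7.003 without control replicate 2 and at 5.32 without control replicate 3, and *Cxcl9* at 5.98 without control replicate 3. Of 11 STAT3 targets, 10 passed as higher, with *Timp1*, an inhibitor of metalloproteinases, at 3.81, *Osmr*, a cytokine receptor, at 3.42 (2.82 without control replicate 3) and *Bcl3* at 3.23, and *Mcl1* rose by less than 2-fold at 0.51. *Lcn2*, at 2.97, had 64.7, 820 and 87.0 normalized reads in mutants, and stood at 1.82 without mutant replicate 2 (adjusted p = 0.0535) and at 3.64 without mutant replicate 1. Its adjusted p of 0.0336 became 0.082, 0.0955 and 0.0508 without control replicates 1, 2 and 3, and 0.0508 without mutant replicate 3.

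**Figure D5:**
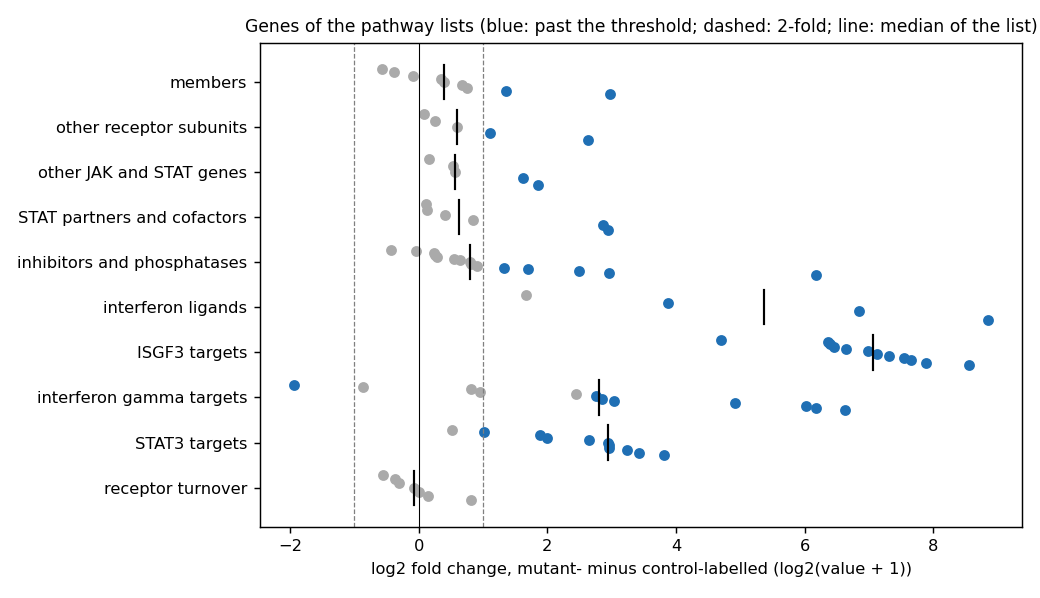
Log2 fold change (mutant-labelled minus control-labelled, on the log2(value + 1) scale) of each tested gene in the pathway lists, with blue points past the threshold, dashed lines at 2-fold and a black line at the median of each list. Members have a median of 0.40, ISGF3 targets of 7.05 and STAT3 targets of 2.95, and the genes of receptor turnover lie between the dashed lines.

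Among the controls, replicate 2 had the highest value of all 12 ISGF3 targets, and replicate 3 the lowest of 11. *Ifit3*, for example, had 511, 3690 and 266 normalized reads in control replicates 1, 2 and 3. *Stat2* (2110, 3390 and 1646) and *Irf9* (1134, 1909 and 833) showed the same order, as did *Stat3*, whereas *Ifnar2* had a coefficient of variation of 1.84% over the same libraries. Leaving out control replicate 2 kept *Stat2*, *Stat3*, *Ifnar2* and *Jak1* as higher, with adjusted p-values between 4.11e-05 and 0.00701.

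Markers of some other cell types moved with the groups, beside 13.9% of all tested genes past the threshold as higher and 10.4% as lower. Of 6 macrophage markers 1 passed as higher, *Aif1* at 1.04, and 2 as lower, *Mrc1* at -2.27 and *Csf1r* at -1.25. *Itgam* rose to 0.56 (adjusted p = 0.0306 by limma), a call kept only when mutant replicate 1 was the library left out (0.0331). *Cd68* and *Adgre1* overlapped between groups (adjusted p = 0.228 and 0.545). The 6 summed to 9561 to 12684 in controls and 4833 to 6400 in mutants, and *Mrc1* and *Csf1r* made up most of the sum in controls. The T and NK cell markers summed to 36.7 to 63.3 in controls and 135 to 286 in mutants. *Cd3d*, *Cd8a* and *Ncr1* were at 0 in controls, and had 3.86 to 9.89, 5.93 to 20.4 and 37.6 to 75.3 normalized reads in mutants. *Cd3d* was under the minimum mean, which *Cd8a*, *Ncr1* and *Cd3g* met through the mutants alone. *Cd3e* (5.07 to 25.5) and *Cd3g* (7.56 to 13.3) were present in controls and overlapped between groups. Of the erythroid markers, 4 of 5 passed as lower (44144 to 62503 in controls, 4108 to 12706 in mutants), and of the muscle markers, 4 of 5 passed as higher. Of the endothelial markers none passed the threshold (11561 to 17724 in controls, 16984 to 21836 in mutants). By adjusted p *Emcn* rose at 0.57 (0.0339) and *Kdr* at 0.81 (0.0331). Neither call held without control replicate 2 (adjusted p = 0.0525 and 0.0944) or 3 (0.102 and 0.0907). Of the fibroblast markers 1 of 5 passed, *Col1a1*, as lower. *Col1a1* made up most of the sum of the 5, which was 1212700 to 1383890 in controls and 484033 to 752703 in mutants, while *Dcn* stood at 0.0049 and *Dpt* at 0.92 (adjusted p = 0.984 and 0.0727). Adipocyte markers were uneven and highest in mutant replicate 2 (up to 1596 in controls and 6464 in mutants), and B cell and neutrophil markers reached sums of at most 151 and 420.4, with none past the threshold. *Ptprc*, a marker of leukocytes at large, had a log2 fold change of 1.33. The part of these cells in the values of the members was not tested.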

How the data were processed

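RNA-seq was made from the sciatic nerves of 6 animals, 3 of each genotype as labelled. The authors prepared oriented poly-A libraries (NuGEN Universal Plus mRNA-Seq), mapped paired reads to mm10 with STAR 2.4.0, counted them on constitutive regions of FAST DB genes and deposited a signal per gene and library, a read count divided by a DESeq2 size factor. Dividing by the value of a single read (0.727 to 1.27) gave whole reads for 100% of values (within 0.05), and these reads entered edgeR and DESeq2.

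log2(value + 1) was fitted with limma (lmFit, eBayes with trend) for 25802 genes with a mean of at least 10 in a group. The threshold, at least 2-fold with p no higher than 0.05, was that of the study's methods, with p taken here before adjustment. P-values were adjusted across all tested genes (Benjamini-Hochberg). The animals are separate, so errors and p-values are over animals. The scripts were tested on simulated data.

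The members and the gene lists were chosen with earlier results of these data known. Named are the members, up to 4 genes per list that passed the threshold without overlap and had the largest changes, neighbours within 250 kb on chromosome 16, and the 3 genes most similar to *Stat2* and *Stat3*. *Stat5a*, *Stat5b*, *Stat6*, *Mcl1*, the turnover genes, *Pias3*, *H2-Ab1*, *H2-Aa*, *Cd74*, *Cd3d*, *Cd3e*, *Cd3g*, the genes tested through the mutants alone, *Ptprc*, *Itgam*, *Cd68*, *Adgre1*, *Emcn*, *Kdr*, *Sox10*, *Foxd3*, *Cdh19*, *Dcn*, *Dpt* and *Raver2* were named after their values were seen. One listed STAT3 target was not analysed here. The values of a further marker of Schwann cells, beside the 5 given, are not reported here. Alternatives were pseudocounts, filters, scalings, other tests, a replicate block and each library left out. R 4.3.3, limma 3.58.1, edgeR 4.0.16, DESeq2 1.42.0 and Python 3.11.15 were used.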

Additional observations from a re-analysis of the deposited data

How the results depend on the processing

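*Stat2* and *Stat3* were the 2 members past the threshold in all 18 alternatives run, and *Stat2*, *Stat3*, *Ifnar2* and *Jak1* kept an adjusted p within 0.05 in 17 of the 17 that can move it. *Tyk2* had one in 13, *Jak2* in 12, *Ifngr2* in 9, *Ifnar1* in 1 (DESeq2) and *Ifngr1* in none. Members with an adjusted p at or under 0.05 numbered 7 in the main analysis, 4 with eBayes without trend, 8 with DESeq2, and 4 to 7 with a library left out (4 without control replicate 2 or without mutant replicate 3). The log2 fold change of *Ifngr1*, -0.08 in the main analysis, was 0.083 with libraries rescaled to the same total, 0.013 with the same 75th percentile and 0.0065 without mutant replicate 1 (-0.14 to 0.0065 with a library left out), and the cause was not tested. Rescaling moved the median of all genes from 0.03 to 0.20 (same total) or 0.13 (same 75th percentile), and *Tyk2* then had -0.40 (adjusted p = 0.0559) under the same total. Of the pathway lists, 39 to 45 genes passed as higher under other settings and 38 to 43 with a library left out, and 1 to 2 passed as lower with a library left out. Same-numbered replicates did not deviate together (correlations of -0.062, -0.055 and 0.009), so the numbers were not taken as pairs. With a replicate block, 5 members had an adjusted p at or under 0.05, *Ifngr2* and *Jak2* no longer among them, and 6149 genes passed the threshold against 6251.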

Other observations

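Among listed genes outside the members, *Usp18*, *Irf9*, *Nmi*, *Socs1*, *Socs3* and *Ptpn2* passed the threshold in 17 of 17 alternatives. *Tmem50b* did so as well, with log2 fold changes between -2.15 and -1.87. *Ifnlr1* passed it in 9 of 16, and *Il10ra* in 15 of 17, although *Il10ra* had an adjusted p within 0.05 in 7 of 17.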
